A study of Homo sapiens with 25 samples.

Results

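The 49 genes described here are mitosis and chromosome segregation genes, chosen by name and sorted into 10 roles, from the cyclins that drive entry into mitosis to the proteins that cut the daughter cells apart. They and the further lists below were chosen with earlier results of these data known. All 49 were found among the 60179 gene rows of the RNA table, and all 49 were among the 13753 genes with a mean of at least 1 TPM (a share of each library's RNA, scaled per transcript length) that were tested. The cells were HEC-1A, an epithelial line from an endometrial adenocarcinoma with the genotype label WT. They had received 20 µM THC (tetrahydrocannabinol, the main psychoactive compound of cannabis) for 24 h, 20 µM THC for 72 h, or no treatment, with 3 RNA-seq and 3 ATAC-seq libraries for each. H3K4me3, a histone mark of active promoters, was mapped by CUT&RUN in 3 libraries with 20 µM THC, whose labels give no duration, and 3 untreated libraries. An IgG control was not analysed here, so 24 of 25 samples were used. The labels name no vehicle and no time for the untreated cells, so time in culture and length of exposure cannot be told apart. Whether replicates were grown as separate cultures is not stated in the labels, although the labels name them biological, so each p-value rests on a spread between samples that may be technical.

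Mitosis begins when CDK1 bound to a B-type cyclin becomes active. Chromosomes are then condensed, attached by their kinetochores to spindle microtubules and held by the spindle assembly checkpoint until every kinetochore is attached. The anaphase-promoting complex, APC/C, next marks securin and the B-type cyclins for destruction, the sisters part, and the cell divides. The RNAs of these proteins accumulate in G2 and mitosis of cycling cells and are low in resting cells. Many of their promoters carry a CHR (cell cycle genes homology region, whose canonical letters are TTTGAA, with TTTAAA known as a variant), which is bound by the MuvB core as part of the repressive DREAM complex or together with B-MYB and FOXM1. CCAAT boxes, the sites of NF-Y, commonly lie upstream of it.

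Promoter sequences from RefSeq (build GRCh38.p14) were matched by symbol for 41 of the 49 genes, the others being AURKA, FOXM1, BUB3, TTK, BIRC5, UBE2C, TPX2 and HMGB2. Where a gene had several listed starts, only the first listed was used for the sequences and matches. The 120 bases before the start are shown for 10 genes, 5′ to 3′ in the direction of transcription, with matches on either strand to the canonical CHR, its variants and the CCAAT box in capitals. A canonical CHR on the opposite strand is printed as TTCAAA, and on that strand the CCAAT box appears as ATTGG. The promoters of CCNB2, CKS2, PLK1, CDCA8, PRC1 and KIF11 were chosen because each has TTTGAA close before the start and CCAAT upstream, CCNB1 and KIF20A because TTTAAA stands in that place, and CDC20 and AURKB because their RNA departed from that of the other genes at 24 h.
CCNB2: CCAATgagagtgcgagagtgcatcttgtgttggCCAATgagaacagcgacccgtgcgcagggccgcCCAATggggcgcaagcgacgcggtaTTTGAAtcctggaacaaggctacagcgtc
CKS2: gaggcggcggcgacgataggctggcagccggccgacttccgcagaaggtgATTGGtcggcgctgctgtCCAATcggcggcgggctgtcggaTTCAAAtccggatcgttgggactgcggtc
PLK1: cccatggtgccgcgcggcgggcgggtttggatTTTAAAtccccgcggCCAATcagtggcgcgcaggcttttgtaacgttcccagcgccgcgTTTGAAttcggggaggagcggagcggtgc
CDCA8: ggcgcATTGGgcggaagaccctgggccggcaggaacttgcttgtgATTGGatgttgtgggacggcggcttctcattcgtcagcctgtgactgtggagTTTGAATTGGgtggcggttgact
PRC1: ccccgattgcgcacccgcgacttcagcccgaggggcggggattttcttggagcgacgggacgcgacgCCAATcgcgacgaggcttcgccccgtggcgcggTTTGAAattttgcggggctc
KIF11: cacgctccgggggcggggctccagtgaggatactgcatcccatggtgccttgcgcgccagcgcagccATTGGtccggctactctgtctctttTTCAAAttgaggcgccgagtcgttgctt
CCNB1: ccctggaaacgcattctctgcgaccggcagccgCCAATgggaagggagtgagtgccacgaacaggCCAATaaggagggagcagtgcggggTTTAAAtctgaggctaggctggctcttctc
KIF20A: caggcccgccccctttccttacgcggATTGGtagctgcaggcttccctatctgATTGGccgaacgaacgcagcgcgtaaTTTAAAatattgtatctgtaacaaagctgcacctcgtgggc
CDC20: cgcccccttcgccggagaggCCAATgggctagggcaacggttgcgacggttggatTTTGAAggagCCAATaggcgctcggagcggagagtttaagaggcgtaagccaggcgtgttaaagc
AURKB: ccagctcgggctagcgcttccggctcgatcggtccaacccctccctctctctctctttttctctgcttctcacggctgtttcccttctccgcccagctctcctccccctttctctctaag
The stretches lie at chr15:59105026-59105145, plus strand for CCNB2, chr9:89311075-89311194, plus strand for CKS2, chr16:23678769-23678888, plus strand for PLK1, chr1:37692396-37692515, plus strand for CDCA8 and chr15:90994536-90994655, minus strand for PRC1. Those of the other genes lie at chr10:92593010-92593129, plus strand for KIF11, chr5:69167030-69167149, plus strand for CCNB1, chr5:138178992-138179111, plus strand for KIF20A, chr1:43358861-43358980, plus strand for CDC20 and chr17:8210226-8210345, minus strand for AURKB. In CDCA8 the TTTGAA match shares bases with a CCAAT match on the opposite strand.

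In CCNB2, CKS2 and PLK1 the TTTGAA match began 29 bases before the start, in KIF11 28, in CDCA8 23 and in PRC1 20. The TTTAAA of CCNB1 began 30 bases before the start and that of KIF20A 41 bases before it. CDC20 had TTTGAA at 65 bases, and AURKB had no match to any of these letters in the stretch shown, its CCAAT match beginning at 153 bases. AURKB had 2 listed starts, of which only the first was searched, so its other promoter may differ. Over the window from 250 bases before the start to 50 from the start on, 27 of 41 genes (65.9%) held TTTGAA, against 15.4% of 27305 promoters. The match began within the last 60 bases before the start in 18 of the 41, against 3.01% of all promoters. CCAAT was found in 28 of 41 (68.3%, against 35.7%), TTTAAA in 12 (29.3%, against 12.3%) and the further variant TTCGAA in 2 (4.88%, against 1.45%). The canonical CHR and the CCAAT box occurred together in 19 of 41 (46.3%, against 6.08%). Letters alone are not a bound site.

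Sequencing depth is unknown, because TPM keeps none. The 49 genes summed to 4722 to 4948 TPM at 24 h, 5007 to 5177 TPM at 72 h and 8719 to 8818 TPM in untreated cells, with no overlap between THC and untreated libraries. Mitochondrially encoded RNA made up 3.30% to 3.41% of TPM at 24 h, 1.16% to 1.37% at 72 h and 7.0% to 7.69% in untreated cells. Its part in the results was not tested beyond a rescaling without it, under which 48 of the 49 genes were lower at 24 h and 49 at 72 h. Under that rescaling the median log2 fold change of all tested genes was -0.29 at 24 h and -0.023 at 72 h. All 6 epithelial markers averaged at least 1 TPM (sums of 4425 to 4489 TPM at 24 h, 3191 to 3438 at 72 h and 2550 to 2666 in untreated cells). Stromal markers summed to 0.612 to 1.08 TPM at 24 h, 0.888 to 1.32 at 72 h and 2.96 to 3.21 in untreated cells, COL1A1 alone of 6 averaging at least 1 TPM over all libraries and LUM being listed at 0 throughout. Leukocyte markers summed to 0.399 to 0.481 TPM at 24 h, 0.962 to 1.59 at 72 h and 0.206 to 0.315 in untreated cells, and endothelial markers to at most 0.357 TPM in any library, with 0 of 6 and 0 of 4 averaging 1 TPM.

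After 24 h of THC, 47 of the 49 genes fell and 0 rose, by limma on log2(TPM + 1) with an adjusted p under 0.05 over all tested genes. The background was high in this comparison: 51.7% of all tested genes were lower and 25% higher. A fall of at least 2-fold was seen in 25 of the 49 genes, against 10.6% of all tested genes. In bulk RNA, fewer cells in G2 and mitosis and less RNA per such cell cannot be told apart. The THC libraries lay below every untreated library for 47 of the 49, against 52.8% of tested genes. The median log2 fold change of the 49 was -1.0, with a range of -2.06 to 0.042, and that of all tested genes was -0.23, so the median gene of mitosis lay 0.77 below the median gene. When each library was centred on its median gene, 44 fell and AURKB and CDC20 rose, while CKS1B, BUB3 and UBE2C were no longer called. The median of all tested genes was then -0.010. Shares of all tested genes are given for the deposited scale only, so the counts after centring have no such share beside them.

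After 72 h, 48 of the 49 genes fell and 0 rose, against 33% of all tested genes lower and 40.1% higher. A fall of at least 2-fold was seen in 14, against 5.56% of all tested genes, and for 48 of 49 every THC library lay below every untreated one, against 35%. The median log2 fold change was -0.80 for the 49, with a range of -1.82 to -0.095, and 0.061 for all tested genes. After centring, all 49 fell, and the median of all tested genes was -0.026. The median of the 49 genes stood at 48.6% of the untreated mean at 24 h and at 57.2% at 72 h. Both THC groups were set against the same 3 untreated libraries.

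**Figure D1:**
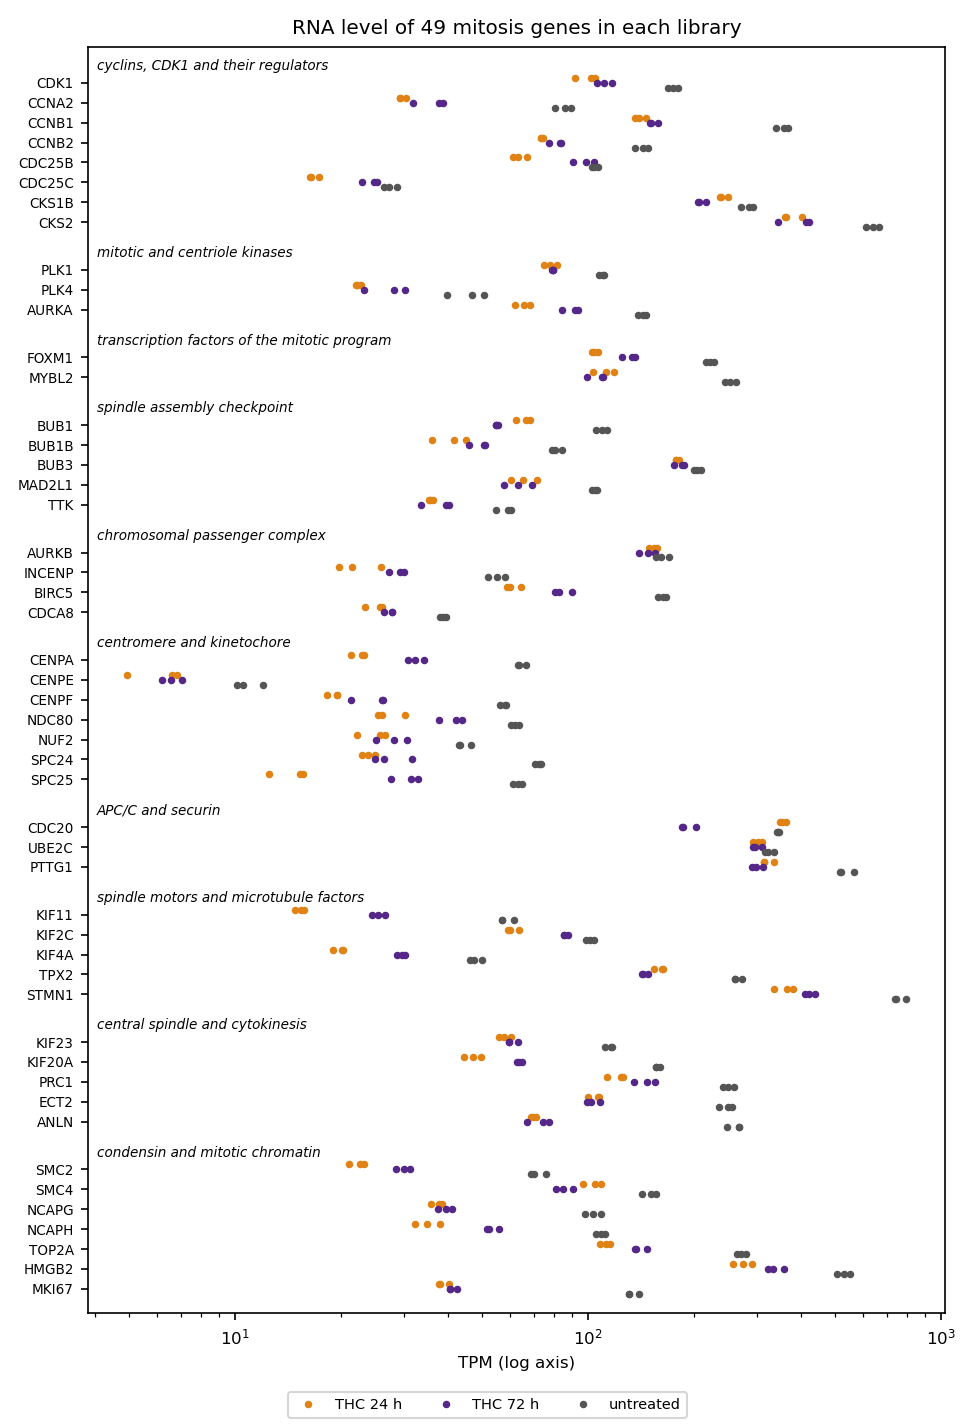
TPM of the 49 genes in each of the 9 RNA libraries on a log axis, each point a library, with 3 libraries each for THC 24 h, THC 72 h and untreated cells, and genes grouped by role. For most genes both THC groups lie left of the untreated points, while AURKB, UBE2C and BUB3 lie close together and CDC20 is set apart at 72 h alone.

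The untreated cells held these RNAs at widely different levels per length, from 10.9 ± 0.963 TPM for CENPE, a kinetochore motor, to 760.0 ± 29.9 TPM for STMN1, a microtubule-destabilising protein (SD, n = 3). CKS2, PTTG1 and HMGB2 followed STMN1, with 641 ± 27.1, 534 ± 27.3 and 530.1 ± 22.3 TPM. CENPE, CDC25C, CDCA8 and the other low genes were thus still well above the 1 TPM needed for testing.

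The cyclins, CDK1 and their regulators fell in 8 of 8 genes at 24 h and 7 of 8 at 72 h. CCNB1, the cyclin B1 that activates CDK1, had 135, 146 and 139.7 TPM at 24 h and 149.6, 157 and 151 TPM at 72 h, against 339, 359.6 and 367 TPM in untreated cells. The highest THC library lay far below the lowest untreated library, and the log2 fold changes were -1.33 ± 0.046 (SE, limma adjusted p = 3.48e-09) at 24 h and -1.21 ± 0.046 (adjusted p = 6.74e-09) at 72 h. CCNA2, the cyclin A2 of S phase and G2, had 29.3, 30.4 and 29.3 TPM at 24 h and 31.9, 38.7 and 37.8 TPM at 72 h, against 80.3, 89.5 and 85.7 TPM untreated, the groups again not overlapping (-1.49 ± 0.073 and -1.22 ± 0.073). CCNB2, the second B-type cyclin, stood at 51.8% of untreated at 24 h and 57.2% at 72 h, and the kinase CDK1 itself at 57.1% and 64.0%.

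CDC25B and CDC25C, phosphatases that remove the inhibitory phosphates from CDK1, fell at 24 h and stood at 93.7% and 88.4% of the untreated level at 72 h. CDC25B had 66.9, 61.1 and 63.3 TPM at 24 h and 104, 90.5 and 98.6 TPM at 72 h, against 104, 106 and 103 TPM in untreated cells. The 24 h libraries were lowest and did not overlap the others, and the 72 h libraries overlapped the untreated ones (-0.10 ± 0.056, limma adjusted p = 0.149). CDC25B was called lower at 72 h without THC 72 h replicate 1 (adjusted p = 0.0467), after centring and after rescaling without mitochondrially encoded genes. CDC25C had 16.4, 17.3 and 16.3 TPM at 24 h, 25.3, 24.7 and 22.9 TPM at 72 h and 26.4, 28.8 and 27.3 TPM untreated, with a log2 fold change of -0.69 ± 0.056 at 24 h and -0.17 ± 0.056 at 72 h. Its 72 h call (adjusted p = 0.0188) was lost without untreated replicate 2 (adjusted p = 0.0663) or THC 72 h replicate 3 (adjusted p = 0.0735). The small CDK-binding subunits CKS1B and CKS2 moved by different amounts: CKS1B stood at 85.3% of untreated at 24 h and 73.8% at 72 h, and CKS2 at 58.7% and 61.3%. The log2 fold change of CKS1B at 24 h, -0.23, was about that of the median gene.

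The 3 mitotic and centriole kinases fell at both times. AURKA, the Aurora A kinase of centrosomes and spindle poles, had 62.0, 68.4 and 66.0 TPM at 24 h and 93.5, 91.8 and 84.5 TPM at 72 h, against 143, 145 and 139 TPM in untreated cells. Its 3 groups did not overlap, with 24 h lowest. PLK1, the Polo-like kinase that acts from mitotic entry to cytokinesis, had 78.2, 74.8 and 81.4 TPM at 24 h and 79.4, 78.8 and 79.5 TPM at 72 h, against 110.3, 107 and 111 TPM untreated. The log2 fold changes of PLK1 were -0.48 ± 0.041 and -0.46 ± 0.041, its THC libraries lying within a narrow band below the untreated ones. After centring PLK1 was lower at 72 h than at 24 h (-0.28, limma adjusted p = 0.000404). PLK4, the kinase that starts centriole duplication, stood at 48.6% of untreated at 24 h and 59.4% at 72 h.

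Both transcription factors of the mitotic program fell at both times. FOXM1, which activates G2 and M genes, had 106, 104 and 102 TPM at 24 h and 136, 124 and 133 TPM at 72 h, against 221, 226 and 216 TPM in untreated cells. MYBL2, which encodes B-MYB, had 118, 103 and 112 TPM at 24 h and 109, 99.3 and 110.5 TPM at 72 h, against 252, 262 and 244 TPM. The THC libraries of both genes lay below all untreated ones. FOXM1 was higher at 72 h than at 24 h on the deposited scale (0.32 ± 0.043, limma adjusted p = 7.26e-05) but not after centring (0.019, adjusted p = 0.693). MYBL2 overlapped between the times (-0.061 ± 0.060, adjusted p = 0.385) and was lower at 72 h after centring (-0.37, adjusted p = 0.000412).

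All 5 spindle assembly checkpoint genes fell at both times, BUB3 least. BUB1, a checkpoint kinase at the kinetochore, had 62.5, 68.4 and 66.8 TPM at 24 h and 55.7, 54.9 and 55.0 TPM at 72 h, against 105, 113 and 109 TPM in untreated cells. The 72 h libraries were the lowest and none of its groups overlapped. BUB3, the adaptor that brings BUB1 and BUBR1 to kinetochores, had 181, 177 and 178 TPM at 24 h and 175, 185 and 187 TPM at 72 h, against 199.5, 204 and 209 TPM untreated, a difference of -0.19 ± 0.039 at 24 h (limma adjusted p = 0.00121) that was smaller than the shift of the median gene. BUB1B, which encodes BUBR1, stood at 50.3% and 60.3% of untreated at 24 h and 72 h, MAD2L1 (the checkpoint protein MAD2) at 63.1% and 60.7%, and TTK (the kinase MPS1) at 61.4% and 65.0%.

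The chromosomal passenger complex, in which the kinase AURKB is held to centromeres by INCENP, survivin (BIRC5) and borealin (CDCA8), did not change evenly. AURKB had 154, 157 and 149 TPM at 24 h and 139.7, 148 and 155 TPM at 72 h, against 161, 155 and 169 TPM in untreated cells. At 24 h its libraries overlapped the untreated ones (-0.078 ± 0.050, limma adjusted p = 0.177, and 0.14 with adjusted p = 0.0492 after centring), and at 72 h they lay just below them (-0.13 ± 0.050, adjusted p = 0.0344). The 72 h call of AURKB was lost without each of THC 72 h replicate 1 (0.123), THC 72 h replicate 2 (0.0638), untreated replicate 1 (0.0674) and untreated replicate 3 (0.130), with the adjusted p of each fit in brackets, and over all libraries left out in turn it ran from 0.0173 to 0.130. BIRC5 had 64.4, 58.9 and 60.1 TPM at 24 h and 90.2, 82.8 and 80.4 TPM at 72 h, against 157, 166 and 162 TPM untreated. Its groups did not overlap, and the log2 fold change was -1.39 ± 0.054 at 24 h and -0.93 ± 0.054 at 72 h. INCENP stood at 40.6% and 52.5% of untreated at 24 h and 72 h, and CDCA8 at 64.6% and 70.5%.

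The 7 centromere and kinetochore genes all fell at both times, with a median log2 fold change of -1.48 at 24 h and -0.97 at 72 h, and SPC25 had the lowest percentage of its untreated level of all 49 genes at 24 h. SPC25, with SPC24, NDC80 and NUF2 a subunit of the NDC80 complex that binds microtubules, had 12.5, 15.2 and 15.5 TPM at 24 h and 27.7, 33.0 and 31.4 TPM at 72 h, against 63.2, 61.1 and 64.9 TPM in untreated cells. Its 3 groups were well apart, with log2 fold changes of -2.06 ± 0.087 (limma adjusted p = 1.43e-08) and -1.02 ± 0.087 (adjusted p = 2.38e-06). SPC24, its partner at the centromere-facing end of the complex, had 23.7, 22.9 and 24.9 TPM at 24 h and 31.7, 26.4 and 24.8 TPM at 72 h, against 73.7, 72.6 and 70.6 TPM, the 2 THC groups overlapping. NDC80 stood at 43.9% of untreated at 24 h and 66.7% at 72 h, and NUF2 at 55.9% and 63.0%, so the 4 subunits covered a range of 22.8% to 55.9% at 24 h. CENPA, the histone H3 variant that marks the centromere, had 21.3, 23.1 and 22.9 TPM at 24 h and 30.9, 34.2 and 32.2 TPM at 72 h, against 63.3, 66.5 and 63.5 TPM. CENPF stood at 33.1% and 42.6%, and the kinetochore motor CENPE at 56.5% and 60.9%.

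The APC/C and securin genes held the clearest departures. CDC20, the activator that brings substrates to the APC/C in metaphase, had 364, 354 and 349 TPM at 24 h and 185, 186 and 202 TPM at 72 h, against 343, 348 and 346 TPM in untreated cells. All 3 libraries at 24 h lay just above the untreated ones, a difference that did not pass the test (0.042 ± 0.042, limma adjusted p = 0.382) except after centring, where CDC20 was called higher, and all 3 at 72 h lay far below (-0.85 ± 0.042, adjusted p = 4.46e-08). UBE2C, the ubiquitin-conjugating enzyme of the APC/C, had 309.8, 303 and 293 TPM at 24 h and 292, 298 and 311 TPM at 72 h, against 322, 316 and 335 TPM. Every THC library of UBE2C lay below every untreated one but by little, and its changes were -0.10 ± 0.041 (adjusted p = 0.0408) and -0.11 ± 0.041 (adjusted p = 0.0306). At 24 h the change of UBE2C was smaller than the shift of the median gene (-0.23), and after centring it was 0.11 (adjusted p = 0.0565). The 24 h call of UBE2C was lost without each of THC 24 h replicate 2 (0.0710), THC 24 h replicate 3 (0.152), THC 72 h replicate 2 (0.0519), untreated replicate 1 (0.0747) and untreated replicate 3 (0.143), and the 72 h call without each of THC 72 h replicate 1 (0.0942), THC 72 h replicate 2 (0.0750), untreated replicate 1 (0.0602) and untreated replicate 3 (0.113), with adjusted p in brackets. PTTG1, the securin that holds separase inactive, had 314, 336 and 316 TPM at 24 h and 291, 312 and 299 TPM at 72 h, against 520.2, 516 and 565 TPM, both THC groups far below the untreated one.

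The 5 spindle motors and microtubule factors fell at both times. KIF11, the Eg5 motor that pushes spindle poles apart, had 14.8, 15.6 and 15.4 TPM at 24 h and 25.4, 26.5 and 24.5 TPM at 72 h, against 57.1, 61.8 and 56.9 TPM in untreated cells. Its groups were well apart, at -1.87 ± 0.053 (limma adjusted p = 1.09e-09) and -1.17 ± 0.053 (adjusted p = 2.41e-08). KIF2C, a kinesin that takes microtubules apart at centromeres, had 60.2, 63.8 and 59.4 TPM at 24 h and 87.5, 85.6 and 85.3 TPM at 72 h, against 98.5, 101 and 104 TPM. The 72 h libraries of KIF2C thus stood nearer the untreated ones than the 24 h libraries. TPX2, the spindle assembly factor that activates Aurora A, had 154, 163 and 162 TPM at 24 h and 147, 143 and 142 TPM at 72 h, against 261, 273 and 260.0 TPM, with 72 h lowest. STMN1 stood at 47.5% and 55.8% of untreated at 24 h and 72 h, and the chromosome-bound kinesin KIF4A at 41.2% and 61.7%. KIF4A has a near-identical copy, KIF4B, which had 0.0817 to 0.296 TPM over the 9 libraries, and the copies of PTTG1 were at 0 to 0.103 TPM (PTTG2) and listed at 0 (PTTG3P), so the RNA assigned to the copies was far below that of KIF4A and PTTG1.

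The 5 genes of the central spindle and cytokinesis fell at both times. ANLN, the anillin scaffold of the contractile ring, had 68.9, 70.9 and 69.6 TPM at 24 h and 77.5, 74.5 and 67.1 TPM at 72 h, against 267, 268 and 247 TPM in untreated cells. Its THC groups overlapped each other and lay far below the untreated libraries, at -1.88 ± 0.057 (limma adjusted p = 1.75e-09) and -1.82 ± 0.057 (adjusted p = 2.04e-09), and at 72 h ANLN had the lowest percentage of untreated among the 49, 28.0%. After centring ANLN was lower at 72 h than at 24 h (-0.24, adjusted p = 0.00242). KIF20A, the kinesin that carries the passenger complex to the central spindle, had 44.5, 49.8 and 47.1 TPM at 24 h and 65.1, 63.5 and 62.7 TPM at 72 h, against 156, 160.0 and 155 TPM, the 3 groups not overlapping. ECT2, the activator of RhoA at the cleavage furrow, stood at 42.4% and 41.9% of untreated at 24 h and 72 h. KIF23, the motor of the centralspindlin complex, stood at 50.5% and 53.0%, and PRC1, which bundles the antiparallel microtubules of the midzone, at 48.3% and 58.2%.

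The 7 condensin and mitotic chromatin genes fell at both times, with a median log2 fold change of -1.44 at 24 h and -1.01 at 72 h. SMC2, an ATPase core subunit shared by both condensins, had 21.0, 23.2 and 22.5 TPM at 24 h and 30.1, 31.4 and 28.6 TPM at 72 h, against 70.3, 75.8 and 68.8 TPM in untreated cells. SMC4, the other core subunit, had 97.0, 109 and 105 TPM at 24 h and 85.1, 90.8 and 81.0 TPM at 72 h, against 142, 155 and 151 TPM. Both genes had 3 groups that did not overlap, but 24 h was lowest for SMC2 and 72 h for SMC4. NCAPH, the subunit that closes the condensin I ring, had 34.9, 38.0 and 32.2 TPM at 24 h and 51.8, 52.3 and 56.0 TPM at 72 h, against 105, 109 and 111 TPM, and NCAPG stood at 36.2% and 38.1% of untreated. MKI67, which coats mitotic chromosomes and is the common marker of proliferation, had 38.0, 40.4 and 37.8 TPM at 24 h and 40.7, 40.5 and 42.5 TPM at 72 h, against 130.3, 139 and 130.3 TPM. It was low in all 6 THC libraries, and the difference between the times was 0.089 ± 0.047 (limma adjusted p = 0.113). After centring MKI67 was lower at 72 h than at 24 h (-0.22, adjusted p = 0.00108). TOP2A, the topoisomerase that untangles sister chromatids, stood at 41.2% and 51.5%, and the chromatin protein HMGB2 at 51.7% and 63.8%.

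**Figure D2:**
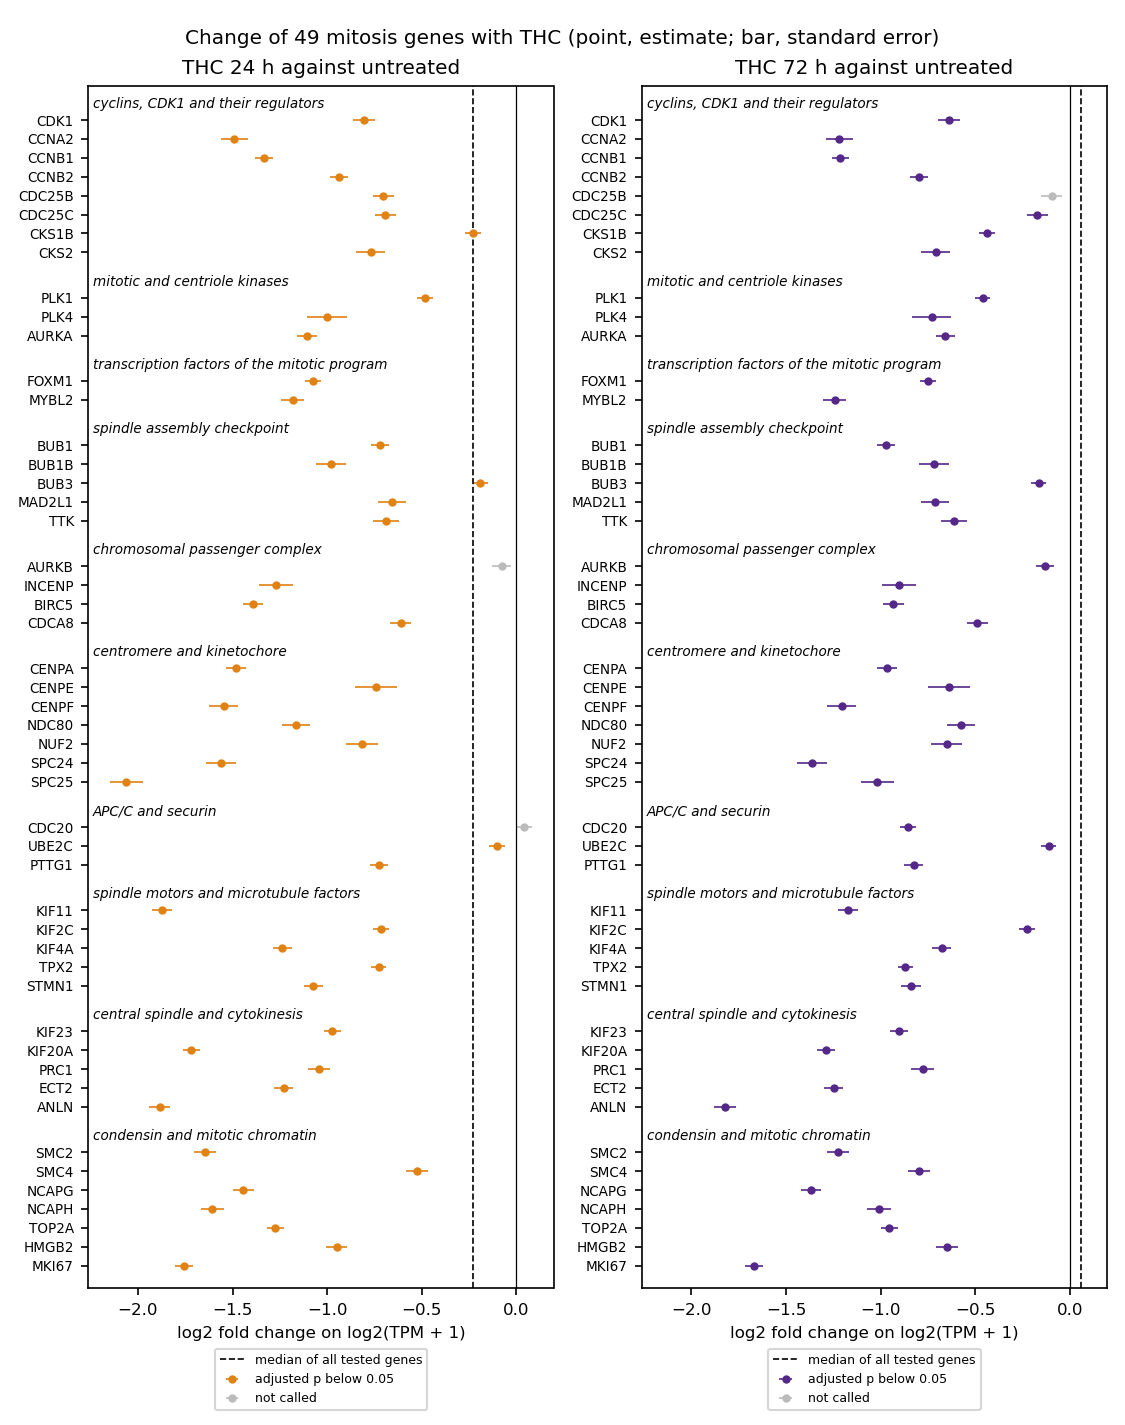
Log2 fold change on log2(TPM + 1) of the 49 genes by role for THC 24 h against untreated and THC 72 h against untreated, with the standard error as a bar (n = 3 libraries a group), genes not called in grey and a dashed line at the median of all tested genes (-0.23 at 24 h, 0.061 at 72 h). At 24 h 47 genes and at 72 h 48 genes are called lower, with CDC20 and AURKB at 24 h and CDC25B at 72 h in grey.

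THC at 72 h was tested directly against THC at 24 h. On the deposited scale 27 of the 49 genes were higher at 72 h, 5 were lower and 17 were not called, and the median log2 difference was 0.17. Of all tested genes 54.9% were higher and 17.8% lower, and their median difference was 0.26, so the shift of the 49 was no larger than that of the median gene. After each library was centred on its median gene, 12 were higher and 22 lower and the median turned to -0.14, while that of all tested genes was -0.047. The shares of all tested genes above are those of the deposited scale. The direction of the group as a whole between the times therefore depended on the scaling. CCNB1 and CCNB2 reversed from higher to lower, at -0.18 and -0.16 after centring.

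On both scales 12 genes were higher at 72 h and 5 lower. SPC25 (1.04 ± 0.087, limma adjusted p = 2.89e-06), KIF11 (0.70 ± 0.053, adjusted p = 1.51e-06) and CDC25B (0.61 ± 0.056, adjusted p = 5.71e-06) had the largest rises on the deposited scale. The others that were higher on both scales were NCAPH, NDC80, KIF4A, CDC25C, CENPA, KIF2C, BIRC5, AURKA and KIF20A, with 0.43 to 0.60 on the deposited scale. CDC20 had the largest fall (-0.90 ± 0.042, adjusted p = 9.87e-08), its highest library at 72 h lying far below its lowest at 24 h. SMC4 (-0.27), BUB1 (-0.25), CKS1B (-0.21) and TPX2 (-0.14) were the other genes lower on both scales. The remaining genes with a call on the deposited scale are named with their values among the results for a closer look.

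Several of the smaller calls between the times rested on single libraries. The call of CDK1 (0.16 ± 0.057, limma adjusted p = 0.0243) was lost without each of THC 24 h replicate 1 (0.0876) and THC 72 h replicate 2 (0.0907). That of CCNB1 (0.12 ± 0.046, adjusted p = 0.0351) was lost without each of THC 24 h replicate 1 (0.113), THC 24 h replicate 3 (0.0870), THC 72 h replicate 2 (0.112) and THC 72 h replicate 3 (0.0539), and that of CCNB2 (0.14 ± 0.047, adjusted p = 0.0200) without each of THC 72 h replicate 2 (0.0618) and THC 72 h replicate 3 (0.0668). The call of PLK4 (0.27 ± 0.10, adjusted p = 0.0375) was lost without each of THC 24 h replicate 1 (0.0759), THC 24 h replicate 2 (0.0620), THC 24 h replicate 3 (0.0810), THC 72 h replicate 1 (0.137), THC 72 h replicate 2 (0.102) and untreated replicate 1 (0.0506). SPC24 (0.20 ± 0.079, adjusted p = 0.0439) lost its call without each of THC 24 h replicate 1 (0.0827), THC 24 h replicate 2 (0.119), THC 72 h replicate 1 (0.144), THC 72 h replicate 2 (0.0519), untreated replicate 1 (0.0592), untreated replicate 2 (0.0605) and untreated replicate 3 (0.0572). CKS2 and TTK were called higher without THC 72 h replicate 1 (adjusted p = 0.0421 and 0.0291), CDCA8 without THC 24 h replicate 1 (0.0401) and NUF2 without THC 72 h replicate 3 (0.0271). The numbers in brackets are adjusted p-values.

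**Figure D3:**
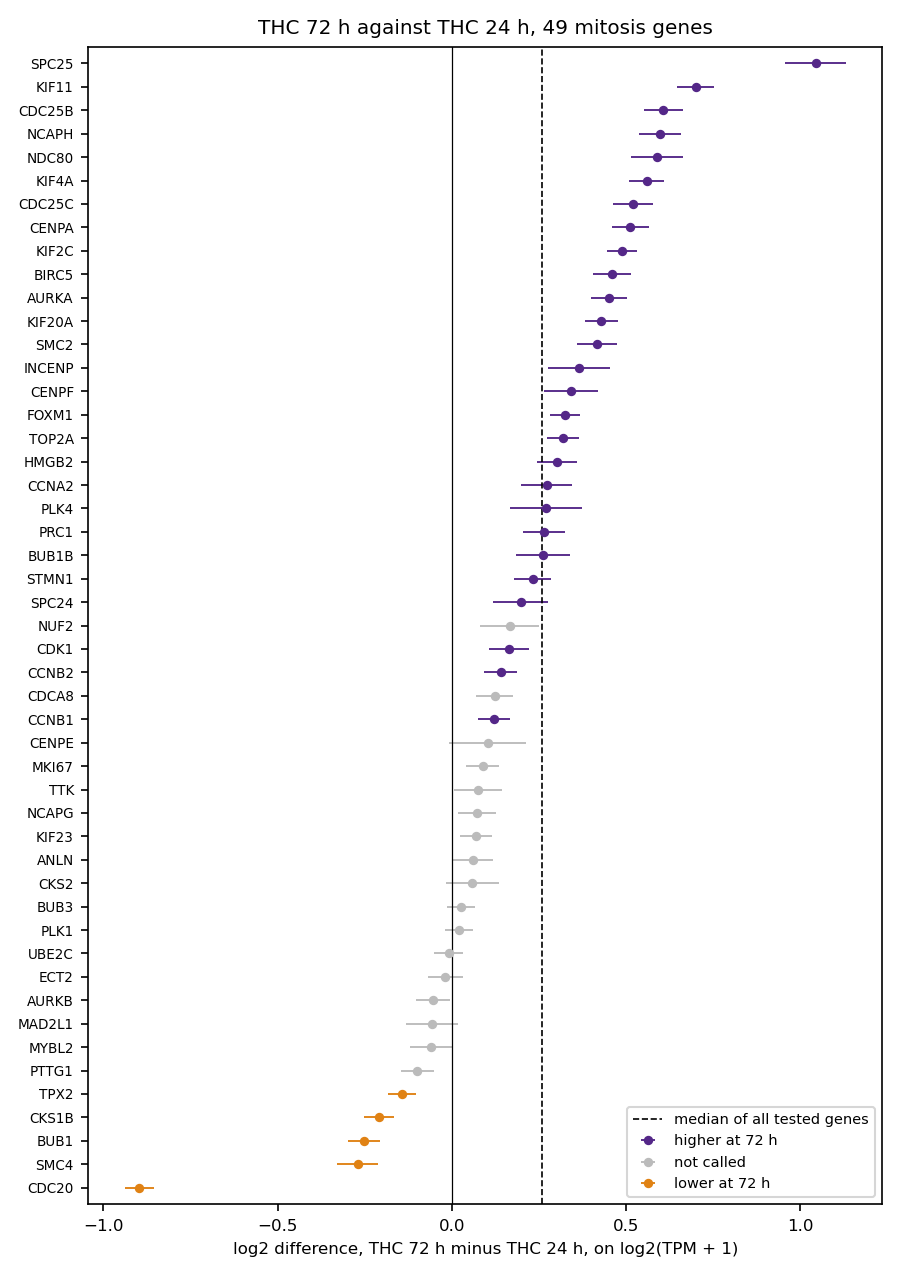
Log2 difference between THC 72 h and THC 24 h (72 h minus 24 h, on log2(TPM + 1)) of the 49 genes in order of size, with the standard error as a bar (n = 3 libraries a group) and a dashed line at the median of all tested genes (0.26). SPC25 lies highest at 1.04 and CDC20 lowest at -0.90, and most genes lie left of the dashed line or close to it.

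ATAC-seq peaks, which mark open DNA, were listed within 500 bases of an annotated start for all 41 genes with a promoter entry in all 3 THC 24 h libraries and all 3 untreated libraries. At 72 h they were listed for 41, 37 and 41 genes. Replicate 2 at 72 h, which lacked MYBL2, BUB1B, CENPE and MKI67, had the shortest list, with 38495 peaks against up to 150884 in the others, and held peaks at 78.8% of 10084 tested gene starts, against 89.8% to 95.1% in the other ATAC libraries. A lost start was one with a peak in every untreated library and no THC library, and a gained start the reverse. None of the 41 was lost or gained at 24 h, against 0.139% of tested starts lost and 0% gained, or at 72 h, against 0.288% lost and 0.00992% gained. The mean number of genes with a peak differed by 0 at 24 h. Every library of that comparison listed all 41 genes, the ceiling of the count, so no test could be run. At 72 h the number differed by -1.33 (two-sided exact permutation test, p = 1, the smallest p with 3 against 3 libraries being 0.1), and by 0 without THC 72 h replicate 2. The untreated libraries stood at the ceiling there too, so a rise could not be seen. With only peaks of -log10 q of at least 5, the difference was -11.0 at 72 h (29.3 ± 11.1 with THC, 40.3 ± 0.577 untreated, SD, n = 3, exact p = 0.4) and -2.67 at 24 h (37.7 ± 3.51 with THC, exact p = 0.4). Under that rule 28, 19 and 41 of the 41 genes were listed in the 72 h libraries and 38, 34 and 41 in the 24 h libraries, against 40, 40 and 41 in the untreated ones. The share of all tested starts was lower in the same libraries, at 55.4%, 27.1% and 81.0% at 72 h and 72.0%, 64.3% and 85.7% at 24 h, against 85.1%, 76.4% and 90% untreated. The 72 h difference was -5.83 without THC 72 h replicate 2 and -16.8 without replicate 3, and the 24 h difference -0.833 without THC 24 h replicate 2 and -4.33 without replicate 3.

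H3K4me3 peaks were listed at the starts of all 41 genes in all 3 THC and all 3 untreated libraries, so none was lost or gained, against 0% lost and 0.0397% gained among tested genes. Within 2000 bases either side of the first listed start, a window of 4001 bases, peaks covered a mean of 3420 ± 47.3 bases with THC and 3390 ± 36.6 bases in untreated cells (SD over libraries, n = 3 each, two-sided exact permutation p = 0.5). Over the tested genes the same means were 2859 ± 40.1 and 2812 ± 2.27 bases (exact p = 0.1, the smallest possible). KIF11, NCAPG, ANLN, ECT2, CKS1B and MAD2L1 were covered over the whole window in all 6 libraries, and their RNA was lower at both times. Full coverage is the ceiling of this measure, so a change in peak height or beyond the window could not be seen. The libraries of the groups did not overlap for 8 genes, 5 with more bases covered with THC and 3 with fewer, against 7.99% and 2.66% of tested genes.

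CDC25B had the largest of these differences, with 1702, 2960 and 2210 covered bases with THC, against 1504, 1167 and 1311 bases in untreated cells. Its lowest THC library lay above its highest untreated library, though the THC libraries themselves were spread widely. AURKB went the other way, with 3008, 3150 and 3053 bases with THC, against 3285, 3739 and 3976 bases untreated. CDC25B had 4 listed starts and AURKB 2, and coverage was measured around the first listed start alone. KIF4A had 3251, 3238 and 3255 bases with THC, against 2897, 3040 and 3178 untreated, and CCNB1 had 3056, 3022 and 3000 with THC, against 3103, 3070 and 3422 untreated. The gaps between the nearest libraries of CCNB1 were small beside the range of its untreated libraries. PLK1, MYBL2 and NUF2 were the others with more bases covered with THC, and BUB1 the other with fewer, with means of 3027, 2648, 3972 and 3761 bases with THC, against 2936, 2541, 3840.3 and 3818 bases untreated, in the order PLK1, MYBL2, NUF2, BUB1. With 3 libraries a group these differences were described and not tested singly.

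**Figure D4:**
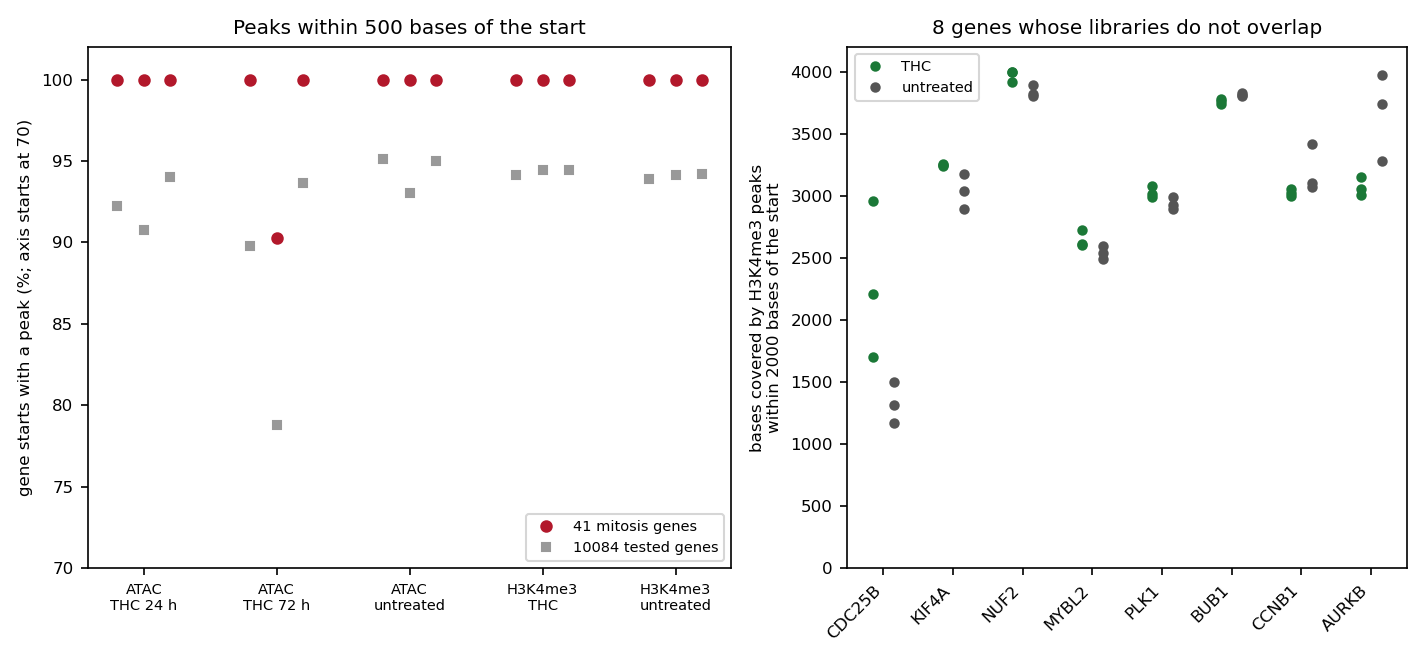
Left, the share of gene starts with a peak within 500 bases in each ATAC and H3K4me3 library for the 41 genes (red) and 10084 tested genes (grey), on an axis from 70%. Right, bases covered by H3K4me3 peaks within 2000 bases of the first listed start in each THC and untreated library for the 8 genes whose groups do not overlap, where CDC25B is higher with THC and AURKB lower.

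The genes that share these processes but lie outside the 49 were taken from 8 further lists with 139 tested genes. At 24 h 121 of the 139 fell and 6 rose, with a median log2 fold change of -0.66, and at 72 h 100 fell and 12 rose, with a median of -0.53. For this set and each further list, the background at 24 h was 51.7% of all tested genes lower and 25% higher. At 72 h the background was 33% lower and 40.1% higher. Of 30 other centromere and kinetochore genes, 29 fell and 1 rose at 24 h, and 23 fell and 2 rose at 72 h. OIP5, which helps load CENPA, averaged 5.42 ± 0.273 TPM at 24 h and 13 ± 0.466 TPM at 72 h, against 31.8 ± 1.40 TPM in untreated cells (SD, n = 3). In the same list MIS12, a subunit of the complex that joins the NDC80 complex to the centromere, fell to 13 ± 0.839 TPM at 24 h and rose to 29.1 ± 1.83 TPM at 72 h, against 18.3 ± 1.14 TPM in untreated cells. NSL1, another subunit of that complex, stood at 27.8% and 39.8% of untreated at 24 h and 72 h and fell at both times.

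Of 17 cohesin and separase genes, 14 fell and 2 rose at 24 h, and 12 fell and 2 rose at 72 h. SMC1A, a core subunit of the cohesin ring, averaged 70.6 ± 5.77 TPM at 24 h and 81.1 ± 0.926 TPM at 72 h, against 195 ± 8.93 TPM in untreated cells. ESCO2, which acetylates cohesin in S phase, averaged 4.77 ± 0.565 and 9.35 ± 2.35 TPM at 24 h and 72 h, against 23.9 ± 3.64 TPM. MAU2, part of the cohesin loader, rose to 22.5 ± 1.81 and 34.4 ± 2.2 TPM, against 17.1 ± 0.491 TPM. All 4 other condensin subunits fell at 24 h and 3 at 72 h, NCAPD2 of condensin I standing at 43.4% and 44.3% of untreated. Of 17 APC/C subunits and cofactors, 14 fell and 1 rose at 24 h, and 10 fell and 4 rose at 72 h. The 72 h shares were 58.8% lower and 23.5% higher, against 33% and 40.1% of all tested genes. ANAPC15 averaged 31.6 ± 2.33 TPM at 24 h and 24.8 ± 1.82 TPM at 72 h, against 77.9 ± 4.36 TPM, and ANAPC13 fell to 42.4 ± 1.72 TPM at 24 h and rose to 74.5 ± 3.57 TPM at 72 h, against 58.3 ± 3.30 TPM.

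Of 18 other regulators of mitotic entry and exit, 15 fell and 2 rose at 24 h, and 13 fell and 1 rose at 72 h. CDC25A, the phosphatase that acts from G1/S on, averaged 9.01 ± 1.21 TPM at 24 h and 15.3 ± 0.641 TPM at 72 h, against 34.4 ± 2.37 TPM in untreated cells, and was called lower at 72 h, where its relative CDC25B was not; the difference between these 2 genes was not tested. Of 35 other spindle genes, 30 fell and 0 rose at 24 h, and 26 fell and 2 rose at 72 h. TACC3, which stabilises kinetochore microtubules, averaged 57.3 ± 3.35 and 76.0 ± 3.64 TPM at 24 h and 72 h, against 144 ± 7.49 TPM. Of 8 centriole duplication genes, 7 fell at 24 h and 5 at 72 h, and 0 rose at either time. Of 10 other cytokinesis genes, 8 fell and 0 rose at 24 h, and 8 fell and 1 rose at 72 h. CEP55, which recruits the abscission machinery, averaged 59.3 ± 2.69 and 46.8 ± 2.67 TPM at 24 h and 72 h, against 125 ± 1.77 TPM.

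Upstream of mitosis, 37 of 38 DNA replication and G1/S genes fell at 24 h (median log2 fold change -1.19) and 35 at 72 h (median -0.77), and 0 rose at either time. Between the times, 29 of the 38 were higher at 72 h than at 24 h and 1 lower on the deposited scale, and 20 and 6 after centring, while for the 49 mitosis genes the same counts were 27 and 5, and 12 and 22. Whether the lists differ in this was not tested. Of all tested genes, 54.9% were higher and 17.8% lower between the times on the deposited scale, and their shares after centring are not given here. CCNE2, the cyclin E2 of the G1/S transition, averaged 1.42 ± 0.258 TPM at 24 h and 6.21 ± 0.933 TPM at 72 h, against 7.55 ± 0.361 TPM in untreated cells. Of 23 DREAM, MuvB and E2F genes, 17 fell and 4 rose at 24 h, and 12 fell and 6 rose at 72 h. The 72 h shares were 52.2% lower and 26.1% higher, against 33% and 40.1% of all tested genes. LIN37, a MuvB core subunit, rose to 44.6 ± 4.48 and 54.9 ± 2.73 TPM, against 27.9 ± 2.67 TPM, while TFDP1, the dimerisation partner of E2F factors, averaged 54.4 ± 3.01 and 103 ± 4.30 TPM, against 201 ± 3.53 TPM. RB1, the retinoblastoma protein, averaged 33.9 ± 1.45 TPM at 24 h and 42.2 ± 1.77 TPM at 72 h, against 57.7 ± 3.57 TPM.

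Among 7 CDK inhibitors, 2 rose and 5 fell at 24 h, and 2 rose and 3 fell at 72 h, where 1 rose and 3 fell after centring. The counts on the deposited scale are near the background of 25% higher and 51.7% lower at 24 h and 40.1% higher and 33% lower at 72 h. CDKN1A, which encodes p21, an inhibitor of CDK complexes, had 227, 216 and 213 TPM at 24 h and 134, 136 and 149 TPM at 72 h, against 4.06, 4.45 and 4.33 TPM in untreated cells. The THC libraries lay far above the untreated ones, and the 72 h libraries below the 24 h libraries (-0.64 ± 0.054, limma adjusted p = 3.13e-06). CDKN1B, which encodes p27, averaged 22.7 ± 0.277 TPM at 24 h and 34.1 ± 1.74 TPM at 72 h, against 30.0 ± 1.89 TPM, and its call as higher at 72 h was lost after centring (0.093, adjusted p = 0.126). CDKN2C, which encodes p18, averaged 1.61 ± 0.362 and 4.87 ± 0.366 TPM, against 15.8 ± 0.167 TPM, and fell at both times.

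**Figure D5:**
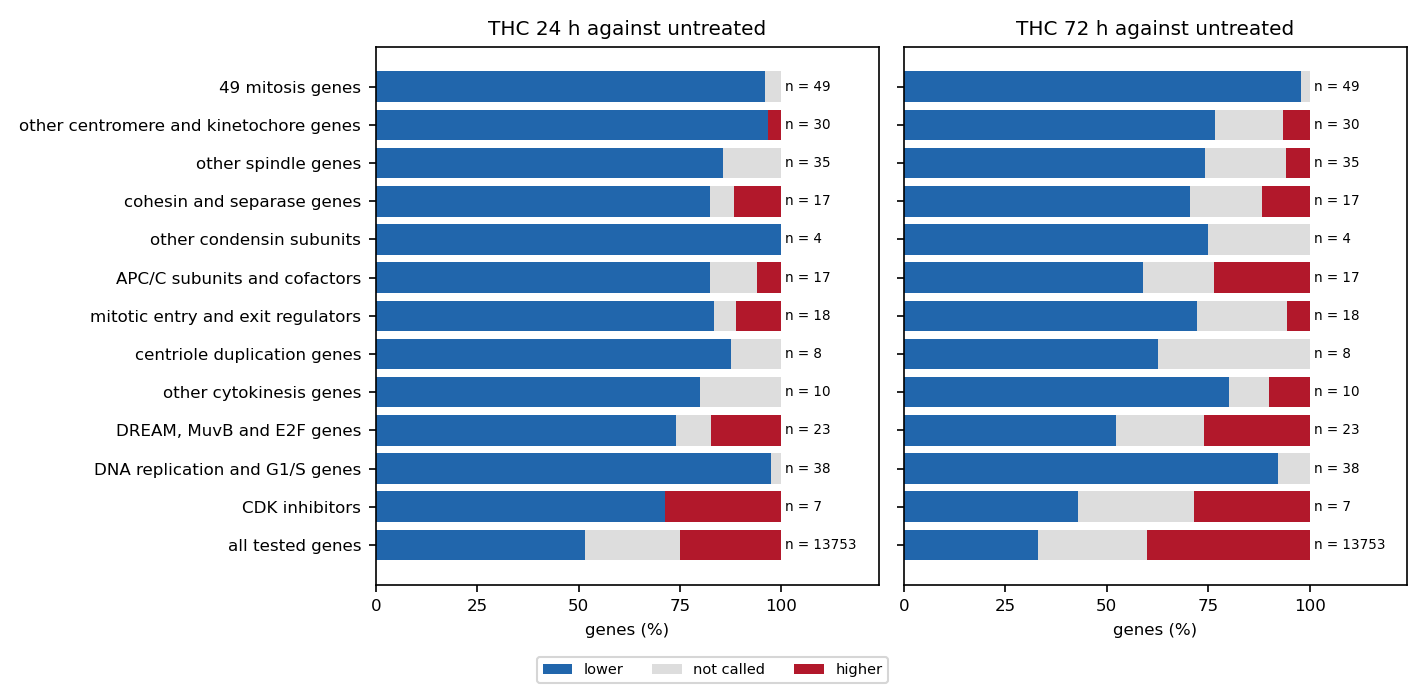
Share of genes called lower, not called and called higher in the 49 mitosis genes, the 11 further lists and all tested genes, for THC 24 h against untreated and THC 72 h against untreated, with the number of tested genes beside each bar. The 49 genes and the replication genes are nearly all lower at both times, against 51.7% and 33% of all tested genes.

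Within the 41 genes with a promoter entry, the 27 with TTTGAA had a median log2 fold change of -1.04 at 24 h and -0.80 at 72 h, and the 14 without it -0.91 at 24 h and -0.91 at 72 h. Those without it include CCNB1, KIF20A, PTTG1, CENPE, KIF2C and NCAPH, which held TTTAAA, and BUB1, which held TTCGAA. The split is therefore by TTTGAA alone and not by presence of a CHR. CCNB2 and CDC20, both shown above with TTTGAA and CCAAT, differed at 24 h, at -0.94 and 0.042. CCNA2, which fell by more than most, had CCAAT but no match in its window to the canonical CHR or the variants searched. Other forms of the CHR were not searched, so CCNA2 cannot be taken as a gene without a CHR. The genes with TTTGAA had the lower median at 24 h and the higher median at 72 h. Longer genes of the 49 tended to fall by more at 24 h (Spearman's rho between gene span and log2 fold change -0.33 across 49 genes, against -0.039 across 12686 tested genes) and at 72 h (-0.26, against -0.10). These are correlations across genes of the same libraries, given as a description, and genes are not independent replicates. CDC20, UBE2C and CKS1B, with spans of 4223, 4309 and 4571 bases, were among the shorter genes with little change at 24 h, while HMGB2, with 2983 bases, stood at 51.7% of untreated.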

How the data were processed

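RNA levels were taken from Salmon quantification, which the authors deposited as TPM per gene and library, on build GRCh38; MACS2 2.2.7.1 and MACS3, Picard, Bowtie2 and SAMtools, FastQC and Trim Galore are also named, per the submitters' processing notes. The peak lists give, as the authors deposited them, a fold enrichment and a -log10 p and -log10 q per peak from the peak caller and an integer display score; the ratio is the peak's own value. Not given in the sources used here: which caller made the ATAC lists, read shifting, duplicate removal and use of the IgG control. Each list belongs to 1 library; replicate numbers are those of the labels, and 3 THC ATAC files (24 h replicate 3, 72 h replicates 2 and 3) carry another number in their names.

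Genes with a mean of at least 1 TPM were fitted together over the 9 RNA libraries with limma 3.58.1 (eBayes with trend) in R 4.3.3 on log2(TPM + 1), with Benjamini-Hochberg adjustment over all 13753 and a threshold of 0.05. A fold change on this scale understates the change of low genes. TPM is a share of each library's RNA, so changes are also given relative to the median gene, which shifted by -0.23 at 24 h, 0.061 at 72 h and 0.26 between the times. Peaks were counted within 500 bases of any RefSeq start and compared by exact permutation tests (Python 3.11.15, pandas 2.3.3, numpy 2.4.6, scipy 1.17.1). H3K4me3 coverage and promoter letters were taken at the first listed start of each gene. Figures used matplotlib 3.10.9. The fit was checked on simulated data. Same-numbered libraries did not deviate together (correlations of -0.20 to 0.25), so the numbers were not used as pairs. Alternatives were another pseudocount, filter, scaling and peak rule, and leaving out each library.

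The 49 genes and the further lists were chosen with earlier results of these data known. All 49 may be named; from each further list up to 3 called genes with the largest change and groups that do not overlap, and CDKN1A, CDKN1B and RB1 always.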

Additional observations from a re-analysis of the deposited data

Results flagged for a closer look

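For 32 of the 49 genes the effect of THC at 72 h differed from that at 24 h by the direct test between the times. Of the 49, 27 (55.1%) were higher and 5 (10.2%) lower. Of all tested genes 54.9% were higher and 17.8% lower, so the share higher was close to that of all tested genes. The values here are log2 differences, 72 h minus 24 h, on the deposited scale. Among the cyclins, CDK1 and their regulators they were 0.61 for CDC25B, 0.52 for CDC25C, 0.27 for CCNA2, 0.16 for CDK1, 0.14 for CCNB2, 0.12 for CCNB1 and -0.21 for CKS1B. AURKA had 0.45, PLK4 0.27, FOXM1 0.32, BUB1B 0.26 and BUB1 -0.25. In the passenger complex BIRC5 had 0.46 and INCENP 0.37. At centromeres and kinetochores SPC25 had 1.04, NDC80 0.59, CENPA 0.51, CENPF 0.34 and SPC24 0.20. CDC20 of the APC/C had -0.90. Among motors and spindle factors KIF11 had 0.70, KIF4A 0.56, KIF2C 0.49, STMN1 0.23 and TPX2 -0.14, and in the central spindle KIF20A had 0.43 and PRC1 0.26. In condensin and chromatin NCAPH had 0.60, SMC2 0.42, TOP2A 0.32, HMGB2 0.30 and SMC4 -0.27.

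Of these, 12 higher and all 5 lower genes were called the same way after centring on the median gene. SMC2 and SMC4, partners in the same ATPase core, stood at 31.1% and 69.2% of untreated at 24 h, and CDC20 and the other APC/C gene UBE2C at 103% and 93.0%.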

How the results depend on the processing

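The counts of genes lower than untreated kept their direction under every alternative run: 44 to 48 at 24 h and 46 to 49 at 72 h. Leaving out each library gave 46 to 47 lower at 24 h and 46 to 48 at 72 h, and 22 to 27 higher and 5 lower (in each fit) between the times. With the replicate block, 46 were lower at 24 h (UBE2C was lost), 48 at 72 h, and 27 higher and 5 lower between the times. Centring each library on its median gene gave 22 lower and 12 higher between the times, with a median of -0.14, and reversed CCNB1 (-0.18), CCNB2 (-0.16), FAM83D (-0.17), RACGAP1 (-0.15) and STIL (-0.17). Centring subtracts each library's own median, so it lowered the difference between the times of every gene by the same amount. For ATAC, peaks of -log10 q of at least 5 gave a difference in mean number of genes listed of -2.67 at 24 h and -11.0 at 72 h (exact p = 0.4 for both), beside a lower share of all tested starts (64.3% to 85.7% at 24 h and 27.1% to 81.0% at 72 h, against 76.4% to 90% untreated). Leaving out each library under that rule, a combination chosen after seeing the data, gave -0.833 (without THC 24 h replicate 2), -4.33 (without THC 24 h replicate 3) and otherwise -2.83 to -2.33 at 24 h, and -5.83 (without THC 72 h replicate 2, which listed 19 of 41), -16.8 (without THC 72 h replicate 3), -10.3 (without THC 72 h replicate 1) and -11.2 to -10.7 (without an untreated library) at 72 h. Counting only peaks over the start base gave -2.33 at 24 h (exact p = 0.1, the smallest possible) and -2.67 at 72 h (exact p = 0.4). The shares of all tested starts under that rule were 83.6%, 80.6% and 89.4% at 24 h and 81.5%, 63.0% and 87.7% at 72 h, against 89.3%, 86.0% and 91.1% untreated. The cause was not tested. With all peaks, leaving out each library gave 0 at 24 h, -2 to 0 at 72 h and 0 for H3K4me3. Counting peaks at either end of the gene record, also chosen after seeing the data, gave an entry to all 49 genes and a peak in at least 1 library to 48 of them, SMC2 being the exception. Depth is unknown for the RNA libraries, and the length of the peak lists limits what their absence of a peak can show.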
